A study of Mus musculus with 12 samples.

Results

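Base excision repair is the route by which oxidized or deaminated bases of DNA are cut out and replaced by an unmodified base. The transcripts of 10 genes of this route that are tied to DNA demethylation were followed: the glycosylases Tdg, Mbd4 and Smug1, the downstream factors Apex1, Parp1, Xrcc1 and Lig3, and the adaptor genes Gadd45a, Gadd45b and Gadd45g. They were taken by name, and each of the 10 was found among the 35976 genes of the deposited count table and passed the filter on low counts, which left 16166 genes. The libraries were made from primordial germ cells, which later form the oocytes, of female E14.5 mouse embryos. Sorting used an Oct4-GFP reporter, and each library held RNA of 5000 cells. There were 4 groups of 3 libraries. HxD was homozygous for a catalytically dead Tet1 (Tet1HxD/HxD), KO was the Tet1 knockout (Tet1-/-), V was homozygous for a Tet1 that stalls at 5hmC (Tet1V/V), and WT was wild type. The labels give neither the litters behind the libraries nor the deleted part of Tet1, so p-values reflect spread among the libraries at hand, part of which may be technical.

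TET enzymes oxidize 5-methylcytosine to 5-hydroxymethylcytosine (5hmC) and then to 5-formylcytosine and 5-carboxylcytosine. TDG removes the last pair of these bases, APEX1 cuts the strand at the emptied site, PARP1 senses the break, and the XRCC1 and LIG3 complex seals it after a new cytosine is put in. MBD4 and SMUG1 remove deaminated bases, and GADD45 proteins are stress-induced adaptors that have been linked to TDG and to nucleotide excision repair in demethylation. Germ cells erase most of their methylation before the stage sampled here, and base excision repair has been studied as one possible route of that erasure.

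Total counts per library ranged from 18471158 to 29495313. The number of genes with a count ranged from 12568 in KO3 and 12815 in HxD1 to 17614 in HxD3. Tet1 itself was at 227, 222 and 286 CPM (TMM-normalized counts scaled to a common library size) in HxD, 130.7, 158 and 80.8 CPM in KO, 226, 197 and 192 CPM in V, and 91.4, 180.1 and 215 CPM in WT. KO overlapped WT. The counts cover the whole gene, so they do not check the KO label. The 7 germ cell markers Pou5f1, Ddx4, Dazl, Dppa3, Kit, Dnd1 and Nanos3 had counts in every library. Their summed level was 2693 to 3209.7 CPM in HxD, 2857 to 3199.8 CPM in KO, 2642 to 3137 CPM in V and 3200.3 to 3783 CPM in WT. Of the other lists, 7 supporting cell markers summed to at most 50.1 CPM, 5 interstitial cell markers to at most 16.4 CPM, 4 endothelial markers to at most 2.95 CPM with Emcn at 0 in every library, and 7 blood and macrophage markers to at most 43.0 CPM, the last of these in WT. In RNA from bulk cells, more cells that express a gene and more RNA per cell cannot be told apart.

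In KO germ cells 2 of the 10 genes rose, the DNA ligase gene Lig3 by 1.82-fold and the stress adaptor gene Gadd45a by 2.32-fold, and 8 were not called (edgeR, adjusted p under 0.05 over all 16166 genes). Of all tested genes 1.22% were called in KO against WT, and 0.724% were called higher. The count of 2 fell to 0 without KO3, without WT1, and without HxD1, KO1 and KO3 together, the libraries with the fewest genes detected. In the same comparison DESeq2 called 3 of the 10, adding Parp1, among 487 genes in all, and limma-voom called 2, Parp1 and Lig3, among 187. None of the 10 was called in HxD, where 0.0309% of all genes were called, or in V, where 0.155% were called. At an unadjusted p under 0.05 there was 1 of the 10 in HxD (7.25% of all genes), and there were 3 in KO (13.2%) and 3 in V (9.69%). DESeq2 and limma-voom called none of the 10 in HxD or V either. Averaged over the 3 mutants, none of the 10 was called by edgeR, against 1.22% of all genes, and 3 had an unadjusted p under 0.05 (13.2%). Over the 3 mutants DESeq2 called Parp1 and Lig3 among 454 genes in all, and limma-voom called Parp1 among 346, where edgeR called 198. The median log2 fold change of the 10 genes was 0.020 in HxD, 0.35 in KO and 0.33 in V, beside -0.0071, -0.017 and 0 over all tested genes.

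Parp1, Lig3 and Gadd45a were each higher in all 9 mutant libraries than in any WT library. Such a separation in the higher direction was found in 1.79% of all tested genes, and in the lower direction, which none of the 10 genes showed, in 2.05%. In single comparisons, 3 of the 10 lay wholly above WT in HxD (6.43% of all genes), 5 in KO (8.17%) and 5 in V (8.7%). None lay wholly below WT, which 5.77%, 8.36% and 7.48% of all genes did in HxD, KO and V. The 3 comparisons share the WT libraries, so they are not independent of each other. The summed germ cell markers were lower in every V library than in any WT library. The highest KO sum was just under the lowest WT sum, and HxD overlapped WT. Within this sum the markers moved in opposite directions. Dazl, an RNA-binding germ cell factor, fell by 1.09, 1.15 and 1.22 on the log2 scale in HxD, KO and V (edgeR, adjusted p = 0.0197, 0.00217 and 0.00312), and Ddx4 was at -0.48, -0.58 and -0.65 with no call. Pou5f1, which encodes OCT4, rose by 1.14 in V (adjusted p = 0.0397) and was at 0.86 and 0.89 in HxD and KO with no call. Dppa3, Kit, Dnd1 and Nanos3 had log2 values of 0.21 to 0.83 in the single mutants, none of them called there. Averaged over the 3 mutants, edgeR called Dazl at -1.15, Pou5f1 at 0.96 and Dnd1 at 0.72 (adjusted p = 4.8e-05, 0.0134 and 0.0187). The part of these markers in the differences of the 10 genes was not tested.

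**Figure D1:**
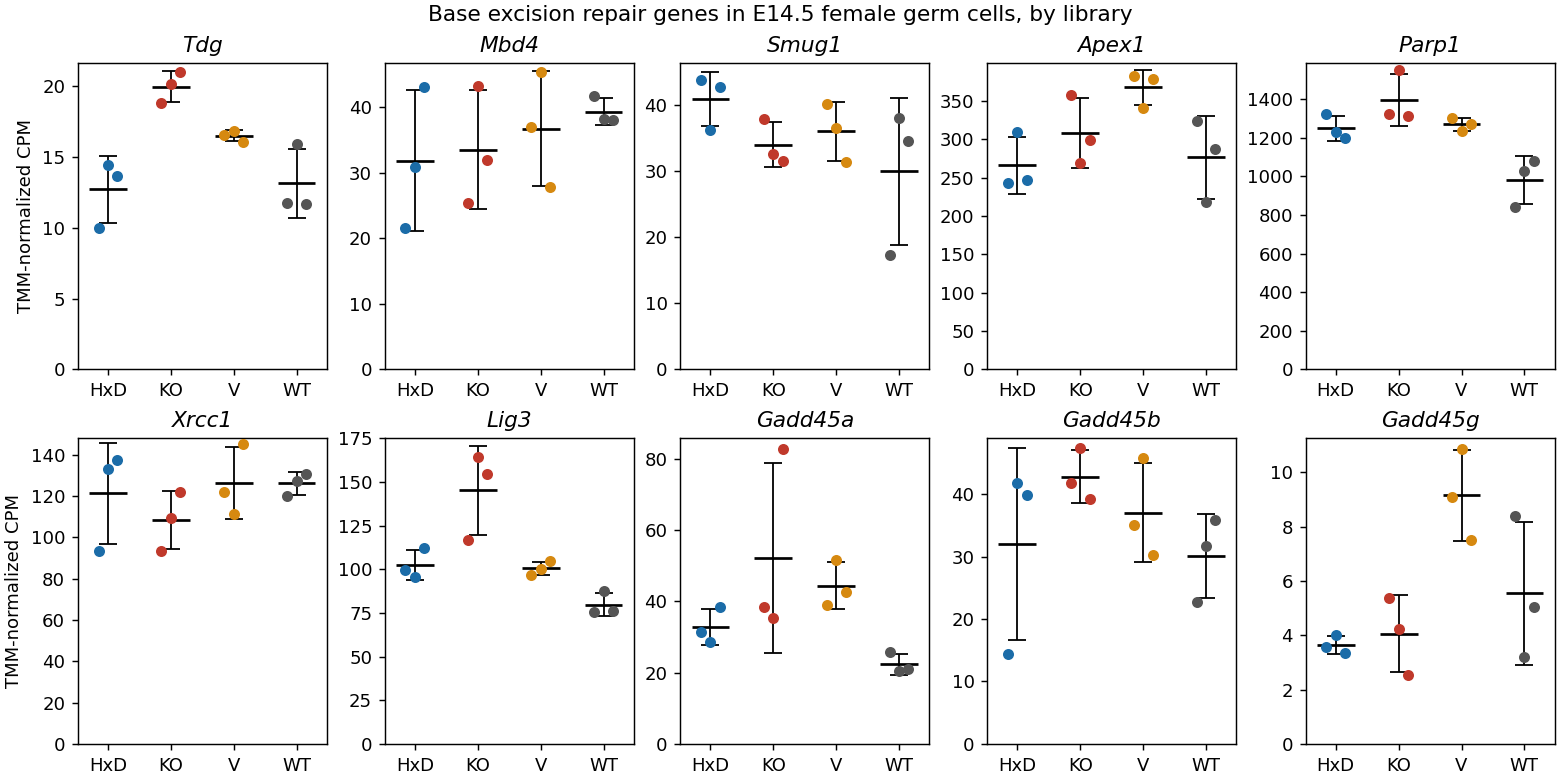
Level of each gene in TMM-normalized CPM in the 12 libraries, with points for libraries, wide lines for group means and bars for 1 SD (n = 3). Parp1, Lig3 and Gadd45a have every HxD, KO and V point above every WT point, whereas Mbd4, Xrcc1 and Smug1 overlap in all groups.

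Among the glycosylases, Tdg, which excises 5-formylcytosine and 5-carboxylcytosine from pairs with guanine, was not called but lay wholly above WT in KO and V. It stood at 10.01, 14.46 and 13.7 CPM in HxD, at 18.8, 20.1 and 21.0 CPM in KO, at 16.6, 16.9 and 16.1 CPM in V, and at 11.8, 15.9 and 11.7 CPM in WT. All KO libraries were above all V libraries, all V libraries above all WT libraries, and HxD overlapped WT. The gap between V and WT was small: V3 was at 16.08 CPM and WT2 at 15.95 CPM. It lay within the counting errors of these libraries, 4.69% and 5.42%. Against WT the log2 fold change, with an SE of 0.41 in each group, was -0.049 in HxD (edgeR, adjusted p = 0.9993), 0.60 in KO (adjusted p = 0.540) and 0.33 in V (adjusted p = 0.924). Tdg has near-identical copies: the pseudogene Tdg-ps matched 2968 of 3502 bases of its transcript at 98.7% identity, Gm5597 and Gm9855 matched 1193 and 1194 bases at 99.3% and 99.2%, and Tdg-ps and Gm9855 were listed at 0 in the count table. The sources used here do not say how multi-mapping reads were counted, which leaves the level of Tdg uncertain.

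Mbd4, which removes thymine and uracil mispaired with guanine at CpG sites, was at 21.6, 30.9 and 43.0 CPM in HxD, 25.3, 43.2 and 32.0 CPM in KO, 37.0, 45.3 and 27.8 CPM in V, and 41.7, 38.2 and 38.0 CPM in WT. The groups overlapped, with the 3 WT libraries close together and each mutant group spread on both sides of them. Its log2 fold change was -0.30 ± 0.30 in HxD, -0.23 ± 0.30 in KO and -0.098 ± 0.30 in V (SE; edgeR, adjusted p = 0.968, 0.807 and 0.980). Smug1, which excises uracil and 5-hydroxymethyluracil, was at 43.8, 36.3 and 42.7 CPM in HxD, 37.9, 32.6 and 31.6 CPM in KO, 40.2, 36.6 and 31.4 CPM in V, and 17.3, 38.0 and 34.6 CPM in WT. WT1 was the lowest library for this gene, and WT2 and WT3 lay among the mutant libraries. The log2 fold change of Smug1 was 0.45 ± 0.29 in HxD, 0.18 ± 0.29 in KO and 0.27 ± 0.29 in V (SE; edgeR, adjusted p = 0.801, 0.851 and 0.893).

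Apex1 encodes the endonuclease that cuts DNA at abasic sites. Its level was 243, 309 and 247 CPM in HxD, 358, 269 and 299 CPM in KO, 383, 341 and 379 CPM in V, and 324, 218 and 287 CPM in WT. The V libraries were all above WT and above HxD, while KO and HxD overlapped WT. In V the log2 fold change was 0.41 ± 0.18 (SE; 95% interval 0.046 to 0.78; edgeR, adjusted p = 0.458), in KO 0.16 ± 0.18 (adjusted p = 0.770) and in HxD -0.054 ± 0.18 (adjusted p = 0.9993). Of the exon bases of Apex1, 61.7% overlap Pip4p1 (listed as Tmem55b) on the opposite strand. Tmem55b was at log2 0.35, 0.36 and 0.32 in HxD, KO and V (edgeR, adjusted p = 0.873, 0.581 and 0.782). As the strand setting is not given, reads from the shared part could belong to either gene. Xrcc1, the scaffold that holds the ligase and the polymerase at a break, was at 93.3, 133 and 137 CPM in HxD, 93.6, 109.7 and 122 CPM in KO, 122, 111 and 145 CPM in V, and 120.3, 127 and 131 CPM in WT. All groups overlapped, and against WT the log2 fold change was -0.057 in HxD, -0.22 in KO and 0.00095 in V, with an SE of 0.19 in each (edgeR, adjusted p = 0.9993, 0.664 and 1). The 95% interval in KO ran from -0.61 to 0.17.

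The 3 genes that separated mutants from WT were Parp1, Lig3 and Gadd45a, and the 200 bases that lie 250 to 51 bases before their RefSeq start sites are shown to allow comparison of their CpG content, as TET1 binds CpG-rich DNA. They run 5′ to 3′ on the gene's strand, come from RefSeq on GRCm38.p6, and have each CG dinucleotide in capitals. The Parp1 window is chr1:180568641-180568840 on the plus strand, that of Lig3 chr11:82780859-82781058 on the plus strand and that of Gadd45a chr6:67037458-67037657 on the minus strand. In GENCODE M21 the genes span chr1:180568924-180601254, chr11:82781108-82804274 and chr6:67035096-67037457 in the same order.
Parp1: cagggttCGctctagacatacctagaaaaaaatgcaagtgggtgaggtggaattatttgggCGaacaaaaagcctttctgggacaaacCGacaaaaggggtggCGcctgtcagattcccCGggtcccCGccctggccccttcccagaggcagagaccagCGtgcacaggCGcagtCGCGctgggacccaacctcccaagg
Lig3: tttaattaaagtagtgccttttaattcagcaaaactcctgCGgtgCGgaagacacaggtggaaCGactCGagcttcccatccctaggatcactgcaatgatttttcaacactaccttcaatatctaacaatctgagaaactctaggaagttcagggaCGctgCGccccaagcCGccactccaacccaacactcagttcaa
Gadd45a: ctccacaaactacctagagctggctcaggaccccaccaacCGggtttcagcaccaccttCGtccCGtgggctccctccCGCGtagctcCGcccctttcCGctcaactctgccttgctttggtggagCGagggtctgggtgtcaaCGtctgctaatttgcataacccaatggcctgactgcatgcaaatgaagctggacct
The windows hold 10, 7 and 9 CG dinucleotides. Over 32851 RefSeq promoter windows the median was 4, and 29.3%, 38.3% and 32.1% had at least as many as Parp1, Lig3 and Gadd45a. The windows of the other 7 genes held 5 in Xrcc1, 10 in Smug1 and Gadd45g, 14 in Tdg, 15 in Gadd45b, 20 in Mbd4 and 23 in Apex1. All of these but Xrcc1 held at least as many as each of Parp1, Lig3 and Gadd45a. The windows of Xrcc1 and Smug1 lie inside the GENCODE M21 span of the gene. Their counts may therefore not describe the sequence before its outermost start. The letters GGGCGG, searched on both strands, occurred in the Parp1 and Gadd45a windows and in 24.6% of all windows, and CCAAT occurred in the Gadd45a window and in 28.4% of all. CACGTG was in none of the 3 and in 4.34% of all windows. These counts are a description of the sequences and carry no statement about binding.

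Parp1 encodes the enzyme that detects strand breaks and marks them with poly(ADP-ribose). Libraries stood at 1324, 1228 and 1199 CPM in HxD, 1325, 1551 and 1313 CPM in KO, 1304, 1234 and 1271 CPM in V, and 839, 1026 and 1079 CPM in WT. The lowest mutant library, HxD3, was above the highest WT library, and the mutant groups overlapped one another except that KO lay above V. The group means were 1250.1 ± 65.3 CPM in HxD, 1396 ± 135 CPM in KO, 1269.6 ± 34.8 CPM in V and 981 ± 126 CPM in WT (SD, n = 3). Against WT this was a log2 fold change of 0.35 ± 0.16 in HxD, 0.51 ± 0.16 in KO and 0.37 ± 0.16 in V (SE; edgeR, adjusted p = 0.673, 0.121 and 0.448). In KO it passed the threshold by DESeq2 (log2 0.47, adjusted p = 0.00537) and by limma-voom (log2 0.52, adjusted p = 0.0316). Without WT1, its lowest library, the KO value was 0.41 (edgeR, adjusted p = 0.451).

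Lig3 encodes the ligase that closes the nick at the end of short-patch repair and also serves mitochondrial DNA. Its transcript reached 99.5, 95.5 and 112 CPM in HxD, 116.6, 165 and 155 CPM in KO, 96.9, 100.5 and 105 CPM in V, and 75.7, 87.3 and 76.2 CPM in WT. Every KO library was above every HxD and V library, and each of those was above every WT library. Lig3 averaged 145 ± 25.3 CPM in KO and 79.7 ± 6.57 CPM in WT (SD, n = 3), a log2 fold change of 0.86 ± 0.19 (SE; 95% interval 0.48 to 1.25; edgeR, adjusted p = 0.0172). In HxD the log2 fold change was 0.36 ± 0.18 and in V 0.34 ± 0.18 (SE; edgeR, adjusted p = 0.713 and 0.573). The KO call was lost without KO2, KO3 or WT1 (edgeR, adjusted p = 0.0894, 0.0569 and 0.0901), with log2 values of 0.77, 0.82 and 0.83. Leaving out the libraries HxD1, KO1 and KO3 together leaves 1 KO library, whose spread is then taken from the other groups; the value was 1.04 (adjusted p = 0.0743). In the GENCODE M21 annotation of GRCm38, 25.1% of the exon bases of Lig3 overlap Rffl on the opposite strand. Rffl was at 127, 144 and 142 CPM in KO and at 88.5, 88.6 and 146 CPM in WT, with a log2 fold change of 0.36 ± 0.21 (SE; edgeR, adjusted p = 0.480). The sources used here do not say whether counting used strand, so reads from the shared part could belong to either gene.

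Gadd45a, a p53-regulated stress gene, was at 31.5, 28.7 and 38.5 CPM in HxD, 38.4, 35.4 and 82.8 CPM in KO, 38.9, 51.7 and 42.6 CPM in V, and 25.8, 20.5 and 20.9 CPM in WT. KO3 was more than the other KO libraries together, and it was also the library with the fewest genes detected. The means were 32.9 ± 5.02 CPM in HxD, 52.2 ± 26.6 CPM in KO, 44.4 ± 6.61 CPM in V and 22.4 ± 2.95 CPM in WT (SD, n = 3). In KO the log2 fold change was 1.22 ± 0.30 (SE; 95% interval 0.60 to 1.84; edgeR, adjusted p = 0.0419). It was 0.72 without KO3 (adjusted p = 0.291) and 0.66 without the trio HxD1, KO1 and KO3 (adjusted p = 0.533). The call was also lost without HxD3, V2, V3, WT1, WT2 or WT3 (edgeR, adjusted p = 0.0508 to 0.135, log2 1.16 to 1.33) and by limma-voom (log2 1.08, adjusted p = 0.114), and was kept by DESeq2 (log2 1.18, adjusted p = 0.0283). In V, where the 3 libraries lay closer together, the log2 fold change was 0.98 ± 0.30 (SE; 95% interval 0.37 to 1.604; edgeR, adjusted p = 0.213), and in HxD 0.55 ± 0.30 (adjusted p = 0.732). E230016M11Rik, which overlaps 19.1% of the exon bases of Gadd45a on the opposite strand, had at most 151 counts in a library, against 438 to 1881 for Gadd45a.

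**Figure D2:**
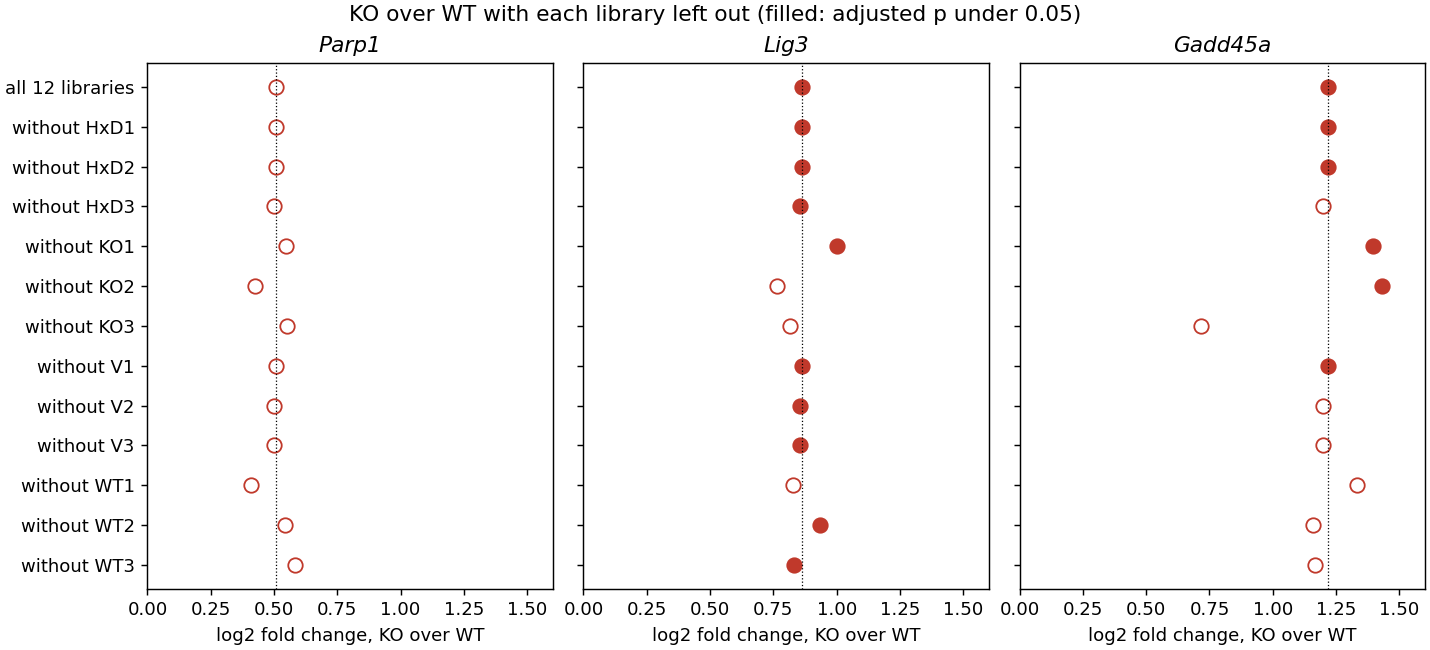
Log2 fold change of KO over WT for Parp1, Lig3 and Gadd45a, with all 12 libraries and with each left out in turn; filled points have an adjusted p under 0.05 (edgeR). Parp1 stays between 0.41 and 0.58 without a call, Lig3 between 0.77 and 1.001, and Gadd45a drops to 0.72 without KO3.

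Gadd45b, a related adaptor induced by stress and by inflammatory signals, was at 14.3, 41.8 and 39.8 CPM in HxD, 41.8, 47.4 and 39.2 CPM in KO, 35.0, 45.8 and 30.2 CPM in V, and 22.8, 31.7 and 35.9 CPM in WT. KO lay above WT, and HxD1 was the lowest of the 12 libraries. Its log2 fold change was 0.088 ± 0.33 in HxD, 0.51 ± 0.33 in KO and 0.30 ± 0.33 in V (SE; edgeR, adjusted p = 0.9993, 0.514 and 0.894). Without HxD1 the HxD value was 0.44, and without HxD2 or HxD3 it was -0.15 or -0.10. Gadd45g, the third adaptor, was the least abundant of the 10 by counts, at 3.56, 4.001 and 3.36 CPM in HxD, 5.38, 4.22 and 2.55 CPM in KO, 9.10, 10.9 and 7.51 CPM in V, and 8.38, 3.19 and 5.06 CPM in WT. V lay above HxD and KO, and WT spanned the gap between them. For Gadd45g the log2 fold change was -0.61 ± 0.85 in HxD, -0.45 ± 0.85 in KO and 0.72 ± 0.85 in V (SE; edgeR, adjusted p = 0.9993, 0.881 and 0.912).

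**Figure D3:**
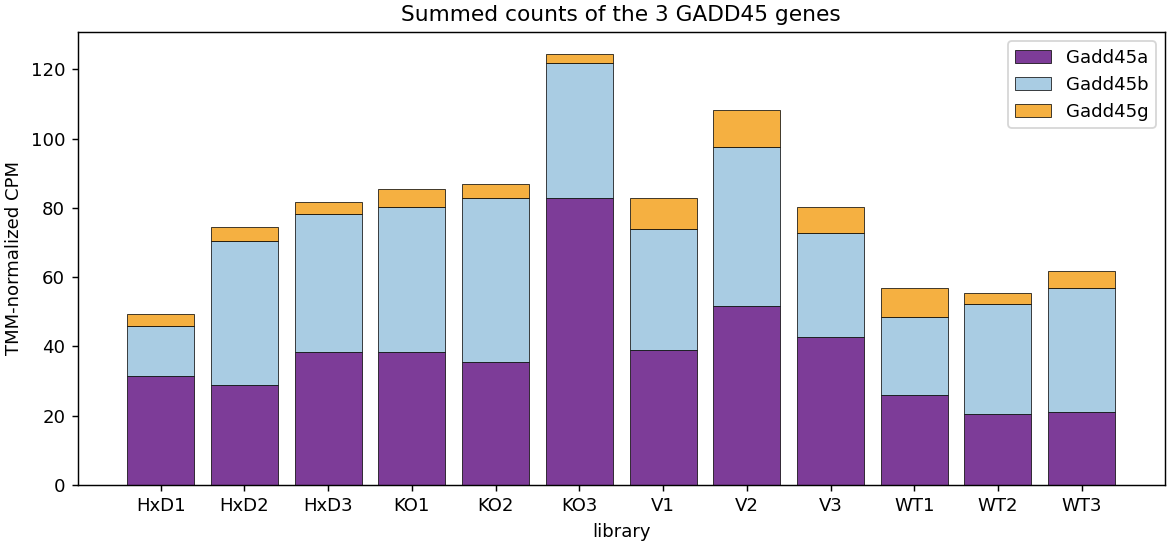
Stacked TMM-normalized CPM of Gadd45a, Gadd45b and Gadd45g in each library. KO3 stands out by its 82.8 CPM of Gadd45a, and HxD1 by its 14.3 CPM of Gadd45b.

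Within the counts of the GADD45 genes, Gadd45a took 49.8% ± 12.9 in HxD, 50.7% ± 13.9 in KO, 49.2% ± 3.32 in V and 38.7% ± 5.94 in WT (SD, n = 3). The V libraries, at 46.9% to 53.0%, were above the WT libraries, at 33.8% to 45.3%, and the HxD and KO libraries overlapped WT. These shares of counts were not corrected for gene length.

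**Figure D4:**
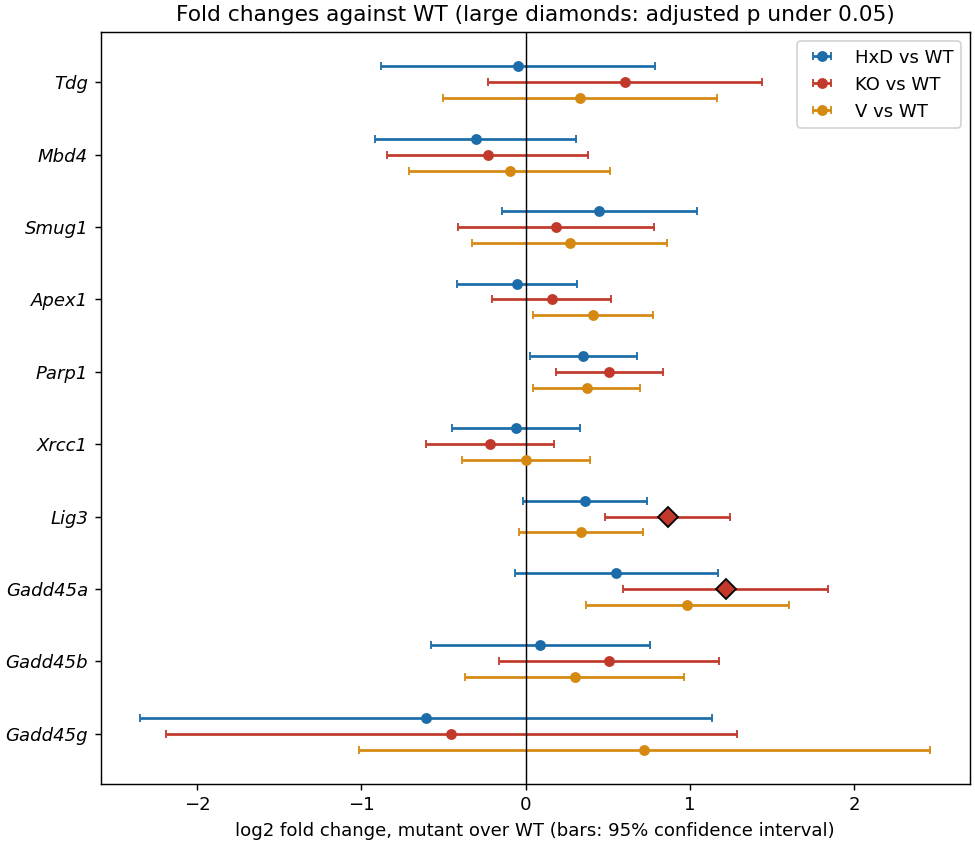
Log2 fold change of each gene in HxD, KO and V over WT, with 95% confidence intervals from the edgeR fit of 12 libraries; diamonds have an adjusted p under 0.05. Lig3 (0.86) and Gadd45a (1.22) in KO are the called values, and the intervals of Parp1 lie above 0 in all 3 comparisons before adjustment.

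Between mutants, none of the 10 genes was called in any of the 3 comparisons, in which 0% of all genes were called by edgeR. At an unadjusted p under 0.05 there were 2 in HxD against KO (3.18% of all genes), 1 in V against KO (4.62%) and 1 in V against HxD (2.02%). By DESeq2 and limma-voom none of the 10 was called. Lig3 was lower in HxD than in KO by a log2 difference of -0.50 ± 0.18 (SE; 95% interval -0.88 to -0.13) and lower in V than in KO by -0.53 ± 0.18 (95% interval -0.91 to -0.15), with adjusted p-values of 1 and 0.945. The difference between V and HxD was -0.024 ± 0.18 (95% interval -0.40 to 0.35). Gadd45a had a log2 difference of -0.66 ± 0.30 in HxD against KO (95% interval -1.28 to -0.050), and Apex1 one of 0.47 ± 0.18 in V against HxD (95% interval 0.10 to 0.83), both with an adjusted p of 1. Groups that did not overlap numbered 2 of 10 genes in HxD against KO, both lower (3.72% of all genes lower), 1 higher and 3 lower in V against KO (6.19% higher and 4.92% lower), and 4 higher in V against HxD (4.53% higher). The effects of the mutants on these genes are therefore not shown to differ.

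The spread between libraries of a group was larger than the counting error of reads, which does not cover molecules lost before sequencing, with the exceptions of Tdg in V (a coefficient of variation of 2.42% and a counting error of up to 5.82%) and Gadd45g in HxD (9.03% and 10.5%). The smallest count of a member was 58, for Gadd45g in KO3, which gives a counting error of 13.1%, and for the other 9 genes the counting error was at most 5.93%. Over the 12 libraries the coefficient of variation was 13.5% for Xrcc1, 14.6% for Parp1, 17.8% for Apex1, 25.8% for Lig3, 44.2% for Gadd45a and 48.3% for Gadd45g. HxD1 was the lowest of the 12 libraries for Tdg, Mbd4, Xrcc1 and Gadd45b and the highest for Smug1.

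Per kilobase of merged GENCODE M21 exons, levels of the 10 genes could be set beside one another. Merged exons join all annotated transcripts of a gene, and which of them these cells use was not tested. For Tdg they come to 5374 bases, against 3502 in its longest coding transcript. The order of the genes therefore depends on this choice of length. Parp1 and Apex1 led in all 4 groups. Parp1 was at 236 ± 12.3 CPM per kb in HxD, 264 ± 25.4 in KO, 239.9 ± 6.58 in V and 185 ± 23.8 in WT, and Apex1 at 187 ± 26.1, 217 ± 31.8, 259 ± 16.2 and 194 ± 37.8 CPM per kb in the same groups (SD, n = 3). Libraries of the 2 genes overlapped on this scale in KO, V and WT, and in HxD Parp1 lay above Apex1. A middle tier of Xrcc1, Gadd45a, Gadd45b and Lig3 lay between 10.9 and 29.6 CPM per kb as group means. Mbd4, Smug1, Gadd45g and Tdg were lowest, at 2.36 to 7.81 CPM per kb, with Tdg last in HxD, V and WT and Gadd45g last in KO. The near-identical copies of Tdg leave its level, and so its rank, uncertain. Of the exon bases of Apex1, 61.7% overlap Pip4p1 (listed as Tmem55b) on the opposite strand, so its level per length is uncertain.

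Of a list of 33 other base excision repair genes, 32 were tested, and none was called in HxD, KO or V against WT by edgeR, with 3, 6 and 4 at an unadjusted p under 0.05, beside 7.25%, 13.2% and 9.69% of all genes. DESeq2 called 1 in KO and 1 in V, Ung in both cases, beside 487 and 150 of all genes, and limma-voom called none in HxD, KO or V. Averaged over the mutants edgeR called 1, Ung, the main uracil DNA glycosylase, beside 1.22% of all genes. DESeq2 and limma-voom also called Ung alone of the list over the mutants, beside 454 and 346 of all genes. Ung was at 330.2, 320.4 and 298 CPM in HxD, 354, 382 and 331 CPM in KO, 442, 302 and 345 CPM in V, and 195, 218 and 275 CPM in WT. All 9 mutant libraries were above all WT libraries, as for Parp1, Lig3 and Gadd45a. Such a separation was found in 1.79% of all tested genes. Of the other tested genes of the list, only Hpf1 showed it. Ung had a log2 fold change of 0.59 ± 0.15 over the mutants (SE; edgeR, adjusted p = 0.0444), 0.46 in HxD, 0.63 in KO and 0.66 in V (adjusted p = 0.571, 0.0738 and 0.126). The edgeR call over the mutants was lost without any 1 of 9 libraries, KO3, V2 and WT3 being the exceptions, with an adjusted p of up to 0.339 without WT1.

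The list as a whole had a median log2 fold change of 0.073 in HxD, 0.10 in KO and 0.061 in V. Of its 8 glycosylases, Mutyh, which removes adenine mispaired with oxidized guanine, was at a log2 fold change of 0.58, 1.02 and 0.89 in HxD, KO and V (edgeR, adjusted p = 0.840, 0.264 and 0.482). The gene of the list with the highest counts was Lig1, the replicative ligase, at 643 ± 118 CPM in HxD, 599.7 ± 52.8 CPM in KO, 676 ± 58.4 CPM in V and 724 ± 104 CPM in WT (SD, n = 3). For Lig1 the log2 fold changes in HxD, KO and V were -0.17, -0.27 and -0.099 (edgeR, adjusted p = 0.9751, 0.511 and 0.955), and those of Pcna, the replication clamp, were -0.0083, 0.21 and 0.21 (adjusted p = 1, 0.664 and 0.792). Parg, the hydrolase that removes poly(ADP-ribose), was at 0.050, 0.15 and 0.048 in HxD, KO and V (edgeR, adjusted p = 0.9993, 0.785 and 0.985), and Ercc5, a nucleotide excision nuclease tied to GADD45A, at 0.16, 0.10 and 0.26 (adjusted p = 0.9993, 0.912 and 0.870), all on the log2 scale. Hpf1, the PARP1 cofactor that directs ADP-ribose to serine, was at 134 ± 5.18 CPM in HxD, 149 ± 5.75 CPM in KO, 161 ± 13.7 CPM in V and 122 ± 7.71 CPM in WT (SD, n = 3), again with every mutant library above WT and with no call (edgeR, adjusted p = 0.992, 0.469 and 0.446). Other genes of the list had negative log2 values, with no call. Taf12, also tied to GADD45A, was at -0.70, -0.68 and -0.46 in HxD, KO and V (edgeR, adjusted p = 0.685, 0.372 and 0.703). Every HxD library of this gene was below WT. Pold2 was at -0.27, -0.52 and -0.0043 in the same order (edgeR, adjusted p = 0.896, 0.287 and 0.9995), with KO wholly below WT. Of the 32 tested genes, 20, 19 and 20 had positive values in HxD, KO and V, and 12, 13 and 12 negative ones. The deaminase genes Apobec1, Apobec2 and Apobec3 averaged 0.608, 2.60 and 2.88 CPM over the 12 libraries. Each of these 3 genes had at least 1 library at 0 counts, and their fold changes are not given. Apobec2 had 97 to 136 counts per library in WT, 0 to 68 in HxD, 0 to 16 in KO and 67 to 121 in V. Its HxD and KO libraries were all below WT, with no call (edgeR, adjusted p = 0.924 and 0.375). Parp3 was at 0.330 CPM and did not pass the filter.

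**Figure D5:**
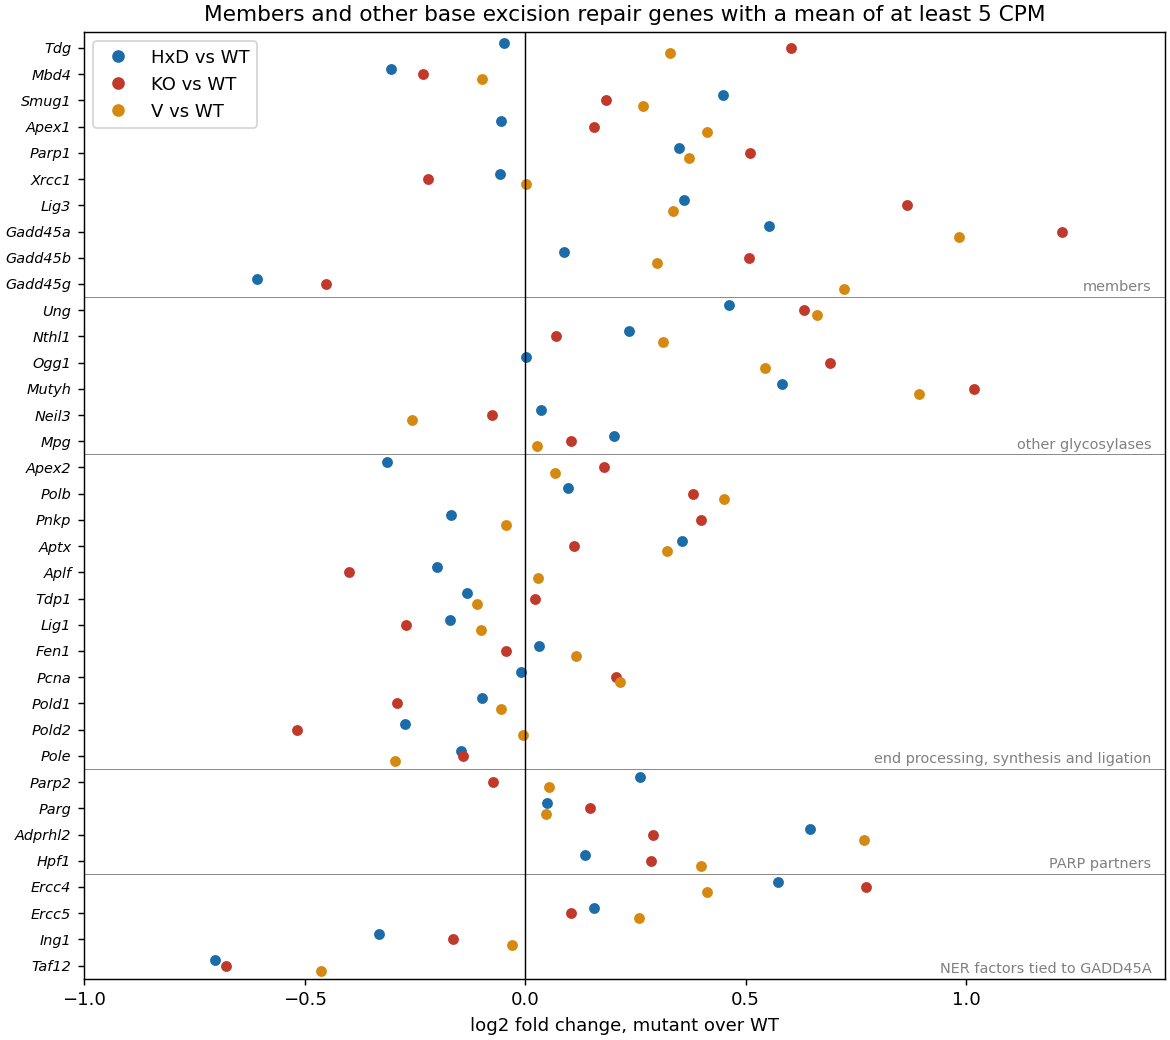
Log2 fold changes of HxD, KO and V over WT for the 10 genes and, by role, the other base excision repair genes averaging 5 CPM or more. Gadd45a and Lig3 reach 1.22 and 0.86 in KO, Ung lies at 0.46 to 0.66 in the 3 mutants, and end processing, synthesis and ligation genes lie between -0.52 and 0.45.

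The genes whose profile over the 12 libraries was most like that of a member were found as the smallest root mean square difference between centred log2(CPM + 0.5) values, among 10401 genes averaging 5 CPM or more. For Lig3 these were Sgsm2, Simc1 and Bag4 (0.128, 0.162 and 0.162 on the log2 scale, against a median of 0.467 for all genes). For Tdg they were Caap1, Ppia and Zfp598 (0.154, 0.164 and 0.167, median 0.453), and for Gadd45a Rpp14, Nubp1 and Sapcd2 (0.212, 0.247 and 0.255, median 0.630). The smallest differences lie below the median by construction, so the median does not show likeness. The SD of the member's own profile was 0.329 for Lig3, 0.305 for Tdg and 0.528 for Gadd45a. Whether the matches are closer than chance would give was not tested.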

How the data were processed

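RNA sequencing of 12 libraries of sorted female germ cells gave 1 table of counts per gene. Tools named in the submitters' processing notes are featureCounts 2.0.3, STAR 2.7.10b, Trim Galore 0.6.7, FastQC and SAMtools 1.9; GRCm39 and mm10 are named without their roles. Annotation, strand setting and treatment of multi-mapping reads: not given in the sources used here. The authors deposited whole-number counts, not normalized. Groups and replicate numbers came from the sample titles and column names.

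From these counts edgeR 4.0.16 in R 4.3.3 (TMM, default filterByExpr, quasi-likelihood F test, two-sided) was fitted once to the 12 libraries, with 1 term for the group. P-values were adjusted by Benjamini-Hochberg over 16166 genes, with calls at an adjusted p under 0.05; standard errors were taken as the absolute log2 value over the root of the F statistic. DESeq2 1.42.0, limma-voom (limma 3.58.1), other filters, left-out libraries and a replicate block were alternatives. edgeR was tested on simulated data. Counting errors assume Poisson counts and cover counting only, as no molecular identifiers are described. Exon lengths, overlaps and near-identical transcripts (BLAST 2.17.0, at least 95% identity over at least 200 bases) came from GENCODE M21 on GRCm38, which may differ from the authors' annotation; coordinates are on that build. Promoter windows came from RefSeq. Adprs was matched as Adprhl2 by RefSeq synonyms.

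All 10 members are named. From the list of other base excision repair genes, those called in any comparison were to be named. So was the one of highest mean CPM in each role. Mutyh, Hpf1, Pcna, Taf12, Pold2, Apobec1, Apobec2 and Parp3 were named after their values were seen. Rffl, E230016M11Rik and Tmem55b were also named after that, for their overlap. One gene of that list is not reported here by name. Members, lists and left-out libraries were chosen with earlier results of these data known.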

Additional observations from a re-analysis of the deposited data

How the results depend on the processing

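In KO against WT the number of the 10 genes called, 2 in the fit reported, was 1 (Lig3) with DESeq2 size factors in edgeR, among genes averaging 5 CPM or more and with only the groups compared, and 0 without HxD1, KO1 and KO3; it was 3 by DESeq2 (Parp1, Lig3 and Gadd45a), 2 by limma-voom (Parp1 and Lig3) and 0 to 2 with single libraries left out, 0 without KO3 or WT1. Averaged over the mutants the number, 0 in the fit reported, was 2 (Parp1 and Lig3) by DESeq2, 1 (Parp1) by limma-voom and 1 (Gadd45a) without a filter on low counts. The causes were not tested. The other 5 comparisons gave 0 under every alternative run. The directions of Parp1, Lig3 and Gadd45a against WT were kept under all alternatives; 46 of 1390 values of the 10 genes changed sign, none of them called. Over all genes, in HxD, KO, V and all mutants against WT, edgeR called 5, 197, 25 and 198, DESeq2 63, 487, 150 and 454, limma-voom 15, 187, 20 and 346, and edgeR without a filter 71, 464, 176 and 429. Among genes averaging 5 CPM or more these were 1, 137, 5 and 197, and with the replicate block 22, 285, 73 and 250. Without HxD1, KO1 and KO3 they were 6, 30, 16 and 207. With single libraries left out they ran from 1 to 35, 31 to 357, 2 to 110 and 29 to 313. With only the groups compared HxD had 20, KO 189 and V 20, and the splits were 93 higher and 96 lower in KO and 2 and 18 in V. Between mutants, where edgeR called 0, DESeq2 called 27 in HxD against KO, 19 in V against KO and 16 in V against HxD. With DESeq2 size factors the KO split was 90 higher and 95 lower, against 117 and 80, and the V split 10 and 22, against 11 and 14. Of 18 same-numbered pairs 1 correlated above 0.1 (range -0.15 to 0.109), and 3 of 12 libraries correlated best with their own number. Such weak correlations gave no sign of pairing, but they cannot exclude a batch or litter shared by number. With the replicate block, calls over all genes rose from 5 to 22 in HxD and from 197 to 285 in KO. They rose from 25 to 73 in V and from 198 to 250 over all mutants. Whether the libraries were paired was therefore not settled. Of the 10 genes, 2 were called in KO with the replicate block and 0 in each other comparison, as without it. Of 2933 genes averaging 1 to 5 CPM, 45.8% were at 0 in KO3 and 43.6% in HxD1, and the counting error of reads does not cover this difference between libraries.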
